A study of Mus musculus with 23 samples.

Results

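The 28 genes described here make cholesterol and fatty acids or control that synthesis. They were chosen by name from 36793 genes in the deposited tables, and each has 1 row there. They are the regulators Srebf1, Srebf2 and Insig1, the early enzymes Acat2, Hmgcs1, Mvk, Pmvk, Mvd, Idi1 and Fdps, and the sterol enzymes Fdft1, Sqle, Lss, Cyp51, Tm7sf2, Msmo1, Nsdhl, Hsd17b7, Ebp, Sc5d and Dhcr7. The sterol carrier Stard4 and the fatty acid genes Acly, Acaca, Fasn, Scd1, Scd2 and Elovl6 complete the list, which does not hold every enzyme of either pathway.

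RNA was sequenced from 3 mouse models of head and neck cancer: SCCVII, a squamous carcinoma grown in C3H/HeJ mice, and MEER, transformed oropharyngeal epithelial cells grown in C57/Bl6 mice, in an HPV+ and an HPV- version. Colonies were sequenced for SCCVII (2 libraries) and HPV- MEER (3 libraries), macrophages for SCCVII, HPV+ MEER and HPV- MEER tumours (3 libraries each), and cultured tumour cell lines for the same 3 models (3 libraries each). Macrophages were the CD45+CD11b+Gr1-F4/80hi cells sorted from subcutaneous tumours, and each library pooled 3 to 4 mice. Colonies grew for 9 days from such sorted macrophages in a medium for haematopoietic stem cells, and the labels call them macrophage progenitor colonies. Line libraries are aliquots of cultured cells, so that p-values between lines measure the spread between aliquots, which may be technical. Tests that set macrophages against lines, or their changes against each other, use the same aliquots and share this limit. Macrophages were sorted from tumours and lines were grown in culture, so cell type cannot be told apart from these conditions. Each model is a single line, so HPV status and whatever else distinguishes the HPV+ from the HPV- line cannot be told apart, nor can SCCVII and its host strain. In what follows "HPV+ macrophages" are macrophages from HPV+ MEER tumours, and the other groups are named likewise. The age of the mice is not given in the sources used here.

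Cholesterol is built from acetyl-CoA through mevalonate, isoprenoids, squalene and lanosterol, and fatty acids are built from the same acetyl-CoA after its carboxylation to malonyl-CoA. Transcription of most of these enzymes is driven by SREBP2, the product of Srebf2, and SREBP1, the product of Srebf1, which are released from the endoplasmic reticulum when sterols are low. Insig1 holds SREBP back there when sterols are plentiful. Macrophages also take up large amounts of cholesterol from dead cells and return it to lipoproteins, and proliferating cells need new membrane lipid.

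The libraries held 26848759 to 47609481 expected counts, and a count of 3 corresponded to 0.063 to 0.112 CPM (expected counts scaled to a common library total). Levels of 1 gene across libraries are given as CPM scaled over all 23 libraries, and levels of different genes within a group as the authors' deposited TPM, which account for transcript length. The macrophage libraries fitted their label, with Csf1r, the receptor that keeps macrophages alive, at 2480 to 3554 CPM, against 0.221 to 2.58 CPM in the lines. The leukocyte gene Ptprc stood at 482 to 979 CPM in macrophages and at 0.0600 to 1.303 CPM in the lines. Not all colonies fitted theirs. Ptprc was at 113 and 3.78 CPM in the SCCVII colonies and at 149, 2.72 and 0.392 CPM in the HPV- colonies. Adgre1, which encodes F4/80, was at 140.1 and 5.19 CPM in the SCCVII colonies and at 1239, 2.84 and 0.0302 CPM in the HPV- colonies, while the epithelial keratin Krt8 stood at 91.7 to 213 CPM in all 5. Library 1 of each colony group thus held macrophage RNA, and the other 3 colony libraries, with little Ptprc and Adgre1, went against their label. HPV- colony library 1 did not hold macrophage markers alone. Its 5 neutrophil markers summed to 299.5 CPM, against 1.316 and 1.116 CPM in HPV- colony libraries 2 and 3. Of the sorted macrophages, HPV- library 4 held 59.0 CPM of Krt8, against 20.8 and 13.4 CPM in the other 2. In HPV+ line library 1, 25 of the 28 genes were highest of the 3 aliquots, where 45.5% of 13358 genes were. SCCVII colony library 1 was the higher of its 2 in 24 of the 28 (34.5% of all genes), and HPV- macrophage library 4 was the lowest of its group in 20 (23.8% of all genes). The 28 were ranked on CPM scaled over all 23 libraries, but all genes on CPM by library total alone. Each of these counts and its share are thus on different scales and cannot be compared directly. Several results that rest on the libraries named here are given with and without them. Counts of members called in such refits stand without the share of all genes called there, and are no result about the 28.

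Scd2, a stearoyl-CoA desaturase that makes monounsaturated fatty acids, had the highest TPM of the 28 genes in all 3 lines and in both colony groups. It stood at 192 ± 4.7 TPM in the SCCVII line, 229 ± 128 TPM in the HPV+ line and 411 ± 83.5 TPM in the HPV- line (SD, n = 3 each). In macrophages the leading genes were others. Ebp, a sterol isomerase, led in SCCVII macrophages at 127 ± 0.951 TPM, and Acly, which makes cytosolic acetyl-CoA from citrate, led in HPV+ macrophages at 239 ± 9.30 TPM and in HPV- macrophages at 131 ± 7.40 TPM (SD, n = 3 each). Scd1, a second desaturase, and Elovl6, which elongates palmitate to stearate, were the 2 lowest of the 28 in each macrophage group, between 2.13 and 4.26 TPM on average. The desaturases were present in different proportion: Scd2 had 26.0 to 53.9 times the TPM of Scd1 in single macrophage libraries, 6.60 to 9.16 times in single MEER line libraries, 1.77 to 4.57 times in colonies and 1.33 to 1.39 times in the SCCVII line.

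Across the 8 groups Scd1 varied most, with a mean CPM 55.7 times higher in the SCCVII line than in SCCVII macrophages. Pmvk followed at 11.1-fold, with its highest mean in HPV+ macrophages and its lowest in the SCCVII line. Elovl6 spanned 9.73-fold, Hsd17b7 8.76-fold and Insig1 7.15-fold between the highest and lowest group. Fdps, which makes farnesyl diphosphate, spanned least, at 1.43-fold, between 63.3 and 101 CPM in the SCCVII colonies, the highest group, and 54.2 to 62.2 CPM in SCCVII macrophages, the lowest. These 2 groups, picked as the highest and lowest mean, did not overlap, while the HPV+ line, at 44.9 to 94.9 CPM, overlapped both. Their separation, at 63.3 against 62.2 CPM, is partly set by that choice and is no test. No group was highest for most genes: the HPV+ macrophages, SCCVII macrophages and SCCVII line were each highest for 5, the 2 colony groups for 4 each, the HPV- line for 3, and the HPV+ line and HPV- macrophages for 1 each.

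**Figure D1:**
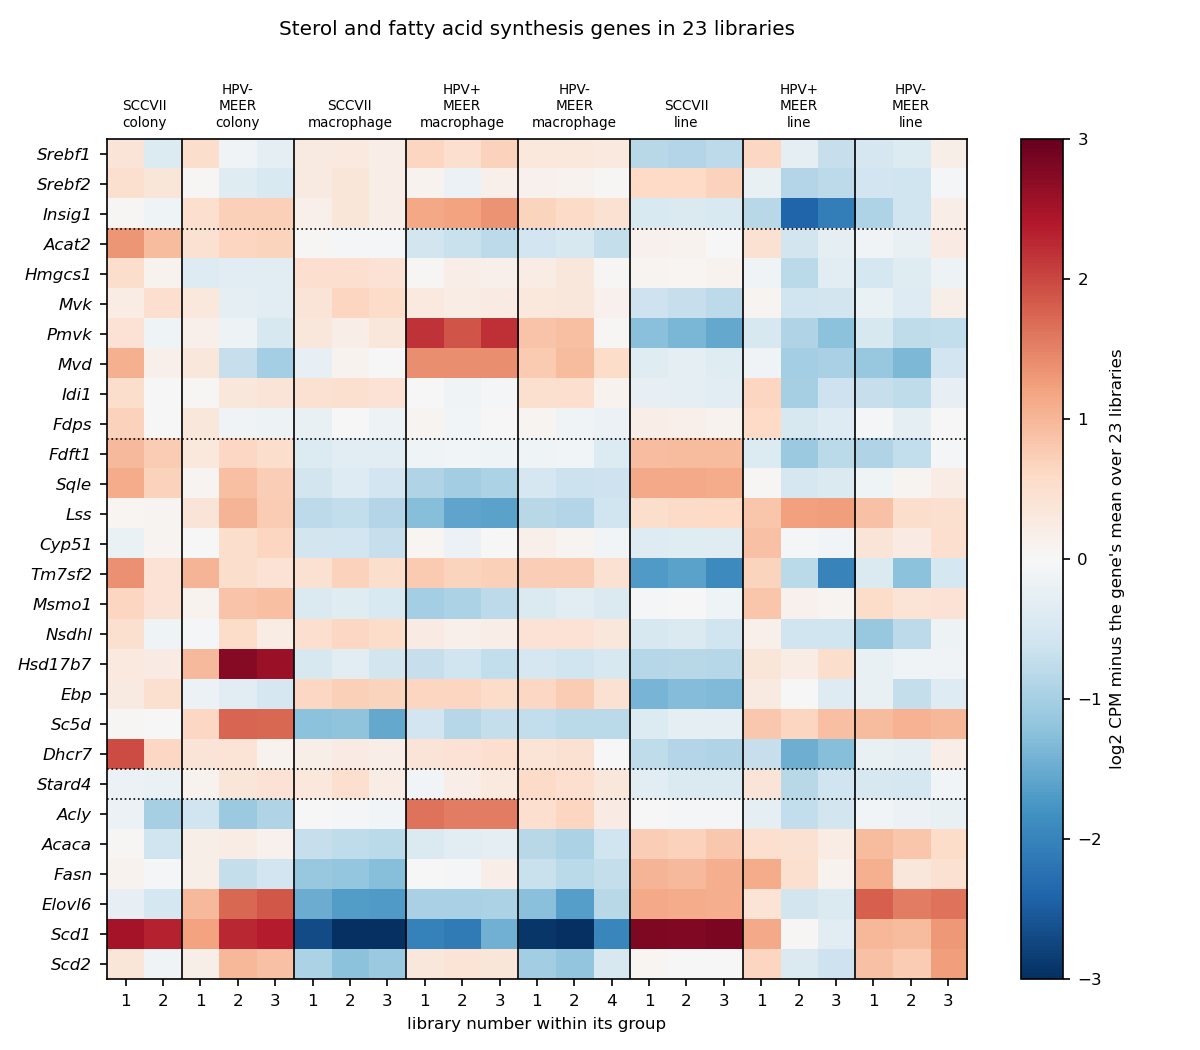
Level of each of the 28 genes (rows, by role) in each of the 23 libraries (columns, by group), as log2 CPM minus the gene's mean over all libraries; the colour scale ends at 3 in either direction. Scd1 is the row with the widest range, low in all 9 macrophage libraries and higher than there in every line and colony library. HPV+ line library 1 stands above the other 2 aliquots of its line in 25 of the 28 rows.

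In macrophages from HPV+ tumours, compared with macrophages from HPV- tumours, 4 of the 6 fatty acid genes among the 28 were higher. These were Acly, Fasn, Scd2 and Acaca, and none fell. Of the 11 sterol enzymes Lss, Msmo1, Sqle and Nsdhl fell, none rose and 7 were not called. Further fatty acid genes outside the 28, given below, fell more often than they rose. The mevalonate steps split, with Pmvk and Mvd higher and Idi1 lower, and the regulators Insig1 and Srebf1 were higher. A gene is said to rise or fall where edgeR's quasi-likelihood test gave a Benjamini-Hochberg adjusted p under 0.05 over all genes tested. By that rule 8 of the 28 were higher, where 22.8% of 14085 genes were higher, and 6 were lower, where 25.9% were lower. The share that changed was thus near the background, and the median log2 change was 0.09 over the 28 and -0.05 over all genes.

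Acly measured 761, 716 and 705 CPM in HPV+ macrophages, against 347, 381 and 289 CPM in HPV- macrophages. The groups did not overlap, and the log2 change was 1.13 ± 0.09 (SE; adjusted p = 1.4e-05). Fasn, the synthase that builds palmitate, had 158.8, 155 and 182 CPM in HPV+ macrophages, against 99.7, 90.9 and 96.0 CPM in HPV- macrophages, a log2 change of 0.81 ± 0.07 (SE; adjusted p = 2.7e-05). Again every HPV+ library lay above every HPV- library. Scd2 reached 745, 784 and 753 CPM in HPV+ macrophages and 286, 259 and 420.1 CPM in HPV- macrophages, and its log2 change was 1.26 ± 0.17 (SE; adjusted p = 0.00026). Acaca, whose product carboxylates acetyl-CoA to malonyl-CoA, differed by less, with 55.3, 59.5 and 60.7 CPM in HPV+ macrophages and 42.3, 38.9 and 49.4 CPM in HPV- macrophages. Its log2 change was 0.45 ± 0.09 (SE; adjusted p = 0.0031). Scd1 (log2 change 0.87, adjusted p = 0.083) and Elovl6 (0.27, adjusted p = 0.26) did not pass. HPV- library 4, the one with the most Krt8, was the highest of its group for both, and without it the changes were 1.44 (adjusted p = 0.0015) and 0.50 (adjusted p = 0.011). The number of members called was then 16, against 14 with it, and calls over all genes in that refit are not given here.

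Of the mevalonate genes, Pmvk, which adds the second phosphate to mevalonate, had 95.8, 78.9 and 98.2 CPM in HPV+ macrophages, against 38.9, 39.98 and 22.1 CPM in HPV- macrophages. Its log2 change of 1.46 ± 0.19 was the largest among the 28 with all libraries in the fit (SE, adjusted p = 0.00023). HPV- library 4 was the lowest of its group for Pmvk, at 22.1 CPM, and the highest for Scd2, at 420.1 CPM. The order of these genes without that library is not given here. Mvd, which makes isopentenyl diphosphate in the next step, had 52.1, 52.2 and 51.7 CPM in HPV+ macrophages and 34.4, 38.1 and 28.9 CPM in HPV- macrophages, with a log2 change of 0.65 ± 0.11 (SE; adjusted p = 0.00093). Idi1, which isomerises isopentenyl diphosphate, went the other way, at 32.8, 30.9 and 31.7 CPM in HPV+ macrophages, against 46.6, 47.5 and 35.9 CPM in HPV- macrophages (log2 change -0.42 ± 0.09 SE; adjusted p = 0.0049). Neighbouring steps of 1 pathway differed in direction between the groups.

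Lss, which closes squalene epoxide into lanosterol, fell furthest, to 16.1, 13.1 and 12.9 CPM in HPV+ macrophages, against 22.1, 21.3 and 25.8 CPM in HPV- macrophages. The log2 change was -0.70 ± 0.11 (SE; adjusted p = 0.00079). Msmo1, which removes methyl groups from the sterol ring, had 38.2, 40.5 and 45.1 CPM in HPV+ macrophages and 57.8, 61.7 and 57.4 CPM in HPV- macrophages (log2 change -0.49 ± 0.07 SE; adjusted p = 0.00033). Sqle, the squalene epoxidase, stood at 40.5, 36.7 and 39.2 CPM in HPV+ macrophages and at 53.0, 48.1 and 48.8 CPM in HPV- macrophages (log2 change -0.34 ± 0.07 SE; adjusted p = 0.0034). No library of one group overlapped the other in any of these 3 genes. The smaller falls of Nsdhl (log2 change -0.18, adjusted p = 0.038) and of the sterol carrier Stard4 (-0.31, adjusted p = 0.042) were lost when any of 5 libraries (each but HPV- library 4) and any of 4 (HPV+ 1 or 2, HPV- 1 or 2) was left out, with adjusted p up to 0.11 and 0.13. Insig1 had 98.8, 103 and 113 CPM in HPV+ macrophages, against 70.7, 66.3 and 60.5 CPM in HPV- macrophages, a log2 change of 0.70 ± 0.08 (SE; adjusted p = 0.00012). Srebf1 rose by 0.34 ± 0.06 on the log2 scale (SE; adjusted p = 0.0012), while Srebf2 ranged from 188 to 235 CPM in HPV+ macrophages and from 216 to 230.1 CPM in HPV- macrophages, and these ranges overlapped.

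**Figure D2:**
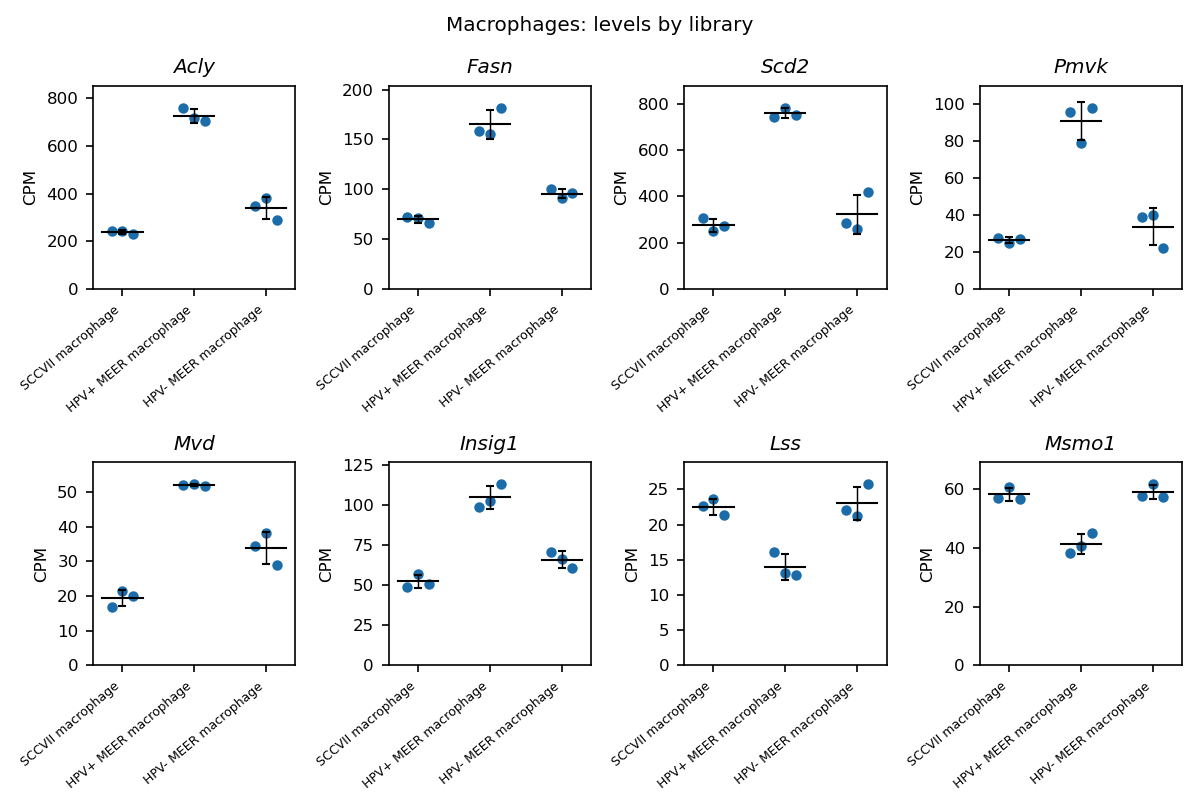
CPM of 8 genes in each macrophage library (points), by tumour model, with the group mean (line) and SD (bars), n = 3 each. Acly, Fasn, Scd2, Pmvk, Mvd and Insig1 are highest in HPV+ macrophages, with no overlap with the other 2 groups, while Lss and Msmo1 are lowest there.

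The size of the differences between HPV+ and HPV- macrophages depended on the unit, and most for Fasn. For Fasn the ratio of mean TPM, HPV+ over HPV- macrophages, was 0.19 on the log2 scale, and the ratio of mean CPM was 0.79. Acaca and Srebf1, also called higher, had log2 ratios of 0.09 and 0.05 by TPM (0.43 and 0.31 by CPM). The other genes called higher had TPM ratios of 1.2 (Pmvk), 0.97 (Scd2), 0.86 (Acly), 0.41 (Insig1) and 0.37 (Mvd). Over the 28 genes TPM gave a value lower than CPM by a median of 0.26 on this contrast (difference -0.26), and TPM carries no scaling between libraries. For Fasn the estimated effective length also differed, at 5994 bases in HPV+ macrophages and 4728 bases in HPV- macrophages.

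Other markers differed between these groups of macrophages. The 10 mitotic genes were all lower in HPV+ macrophages, and their summed level was 377 to 472 CPM, against 790.0 to 879 CPM in HPV- macrophages. The 6 macrophage markers summed to 10250 to 11630 CPM in HPV+ macrophages and to 16780 to 20810 CPM in HPV- macrophages, with 1 higher and 4 lower. The epithelial list was higher for 2 of 4 tested genes and summed to 425 to 554 CPM in HPV+ macrophages, against 75.3 to 145 CPM in HPV- macrophages. Most of that was Cdh1, at 367 to 497 CPM in HPV+ macrophages and 44.5 to 66.4 CPM in HPV- macrophages, whereas Krt8 was at 22.0 to 27.3 CPM in HPV+ macrophages and 13.4 to 59.0 CPM in HPV- macrophages, and Krt5 at 0.0921 CPM or less in all 6. Dendritic cell markers summed to 52.1 to 181.5 CPM in HPV+ macrophages, against 9.06 to 13.4 CPM in HPV- macrophages (2 of 4 higher). Most of the HPV+ sum was Ccr7, at 41.6 to 150.5 CPM in HPV+ macrophages and 4.39 to 6.12 CPM in HPV- macrophages. Xcr1 was at 0.607 to 1.88 CPM in HPV+ macrophages and 1.40 to 2.92 CPM in HPV- macrophages. The eosinophil list, through Siglecf alone, summed to 46.7 to 66.8 CPM in HPV+ macrophages, against 0.686 to 1.90 CPM in HPV- macrophages, with Epx at 0 in all 6. The 1 mast cell marker tested was higher, and that list summed to 9.89 to 19.8 CPM in HPV+ macrophages, against 3.43 to 4.05 CPM in HPV- macrophages. The part these differences have in the lipid genes was not tested, and in a bulk sample fewer cells of a type cannot be told apart from less RNA per cell.

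The promoters of 6 genes named above are shown because these genes moved in opposite directions or, for Hmgcs1, because its promoter holds the most matches to the sterol element. The windows run from 250 bases before to 50 bases after the annotated start and come from RefSeq on GRCm38.p6. Capitals mark CCAAT, the letters read by NF-Y, and CACCCNAC, a core of the sterol regulatory element read by SREBP, on either strand (ATTGG is CCAAT on the other strand). Acly, Fasn and Insig1 rose in HPV+ macrophages. Lss and Msmo1 fell. Hmgcs1 condenses acetoacetyl-CoA with acetyl-CoA and is a classical SREBP2 target. Their windows are, for Acly, chr11:100527951-100528250 on the minus strand, for Fasn, chr11:120824498-120824797 on the minus strand, for Insig1, chr5:28071162-28071461 on the plus strand, for Lss, chr10:76531355-76531654 on the plus strand, for Msmo1, chr8:64733529-64733828 on the minus strand, and for Hmgcs1, chr13:119690101-119690400 on the plus strand.
Acly: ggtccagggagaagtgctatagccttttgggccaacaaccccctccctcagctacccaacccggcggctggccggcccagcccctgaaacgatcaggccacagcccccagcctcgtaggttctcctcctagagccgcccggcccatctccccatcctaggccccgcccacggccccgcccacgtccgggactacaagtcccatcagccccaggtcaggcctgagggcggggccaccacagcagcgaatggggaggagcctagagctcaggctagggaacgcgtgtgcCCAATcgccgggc
Fasn: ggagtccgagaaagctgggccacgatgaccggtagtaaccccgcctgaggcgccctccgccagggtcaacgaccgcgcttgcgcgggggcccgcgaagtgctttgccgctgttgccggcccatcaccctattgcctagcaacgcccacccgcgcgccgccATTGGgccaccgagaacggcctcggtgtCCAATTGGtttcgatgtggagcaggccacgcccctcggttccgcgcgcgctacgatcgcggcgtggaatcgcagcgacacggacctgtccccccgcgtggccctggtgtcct
Insig1: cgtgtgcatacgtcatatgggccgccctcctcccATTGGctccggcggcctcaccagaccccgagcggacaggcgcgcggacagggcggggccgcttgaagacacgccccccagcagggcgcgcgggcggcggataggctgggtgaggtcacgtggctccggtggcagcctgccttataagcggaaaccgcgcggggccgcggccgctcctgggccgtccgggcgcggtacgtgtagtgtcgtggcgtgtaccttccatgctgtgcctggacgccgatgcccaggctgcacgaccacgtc
Lss: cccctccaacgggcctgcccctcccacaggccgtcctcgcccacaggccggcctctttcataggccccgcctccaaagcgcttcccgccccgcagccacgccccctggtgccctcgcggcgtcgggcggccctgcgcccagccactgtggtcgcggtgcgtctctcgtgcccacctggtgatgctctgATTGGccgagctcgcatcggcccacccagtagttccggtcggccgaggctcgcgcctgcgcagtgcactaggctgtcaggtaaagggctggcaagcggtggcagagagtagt
Msmo1: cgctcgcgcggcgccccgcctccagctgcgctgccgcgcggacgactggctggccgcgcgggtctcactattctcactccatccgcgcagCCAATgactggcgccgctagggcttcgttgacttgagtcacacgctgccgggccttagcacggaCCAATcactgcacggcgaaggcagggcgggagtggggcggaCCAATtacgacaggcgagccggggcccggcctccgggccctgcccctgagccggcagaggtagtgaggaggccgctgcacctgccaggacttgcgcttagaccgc
Hmgcs1: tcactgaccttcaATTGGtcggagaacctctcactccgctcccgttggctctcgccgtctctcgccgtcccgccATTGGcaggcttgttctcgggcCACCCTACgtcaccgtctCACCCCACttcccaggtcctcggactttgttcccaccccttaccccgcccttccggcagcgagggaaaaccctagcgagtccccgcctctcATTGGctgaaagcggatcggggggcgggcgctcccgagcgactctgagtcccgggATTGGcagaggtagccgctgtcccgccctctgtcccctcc

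RefSeq promoters were matched for 22 of the 28 genes, which gave 27 windows. CCAAT was in 20 of the 27 (74.1%), against 37.4% of 32851 mouse promoter windows of the same length, and GGGCGG, the letters read by Sp1, in 20 (74.1%), against 35.7%. The full sterol element core CACCCCAC was in 2 windows (7.4%, against 2.9% of all), those of Hmgcs1 and Acat2, and the looser CACCCNAC, which includes it, in 3 (11.1%, against 5.1%). The E-box CACGTG was in 4 windows (14.8%, against 7.2%). Genes that rose and genes that fell both carried CCAAT: Fasn held 3 and Msmo1 held 3. A match in a window is a description of its letters and not evidence of binding.

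Genes around the 28 also moved between HPV+ and HPV- macrophages, in counts to be read against the 22.8% of all genes that rose and the 25.9% that fell. Among 9 genes of SREBP processing and of protein degradation at the endoplasmic reticulum, 2 rose and 3 fell: Scap, the SREBP escort that senses sterols, had a log2 change of 0.68 and Ubxn8 of 0.81, while Erlin1, which aids Insig-dependent degradation, had -0.51. Of 15 genes of LXR signalling, cholesterol export and storage, 7 rose and 3 fell. Soat1, which esterifies cholesterol, rose by 0.78 and Mylip, an LXR target that degrades lipoprotein receptors, by 0.74, while Ch25h, which makes 25-hydroxycholesterol, fell by 1.40 on the log2 scale. Of 14 further sterol and acetyl-CoA enzymes 2 rose and 3 fell, with Aacs, which activates acetoacetate, at 0.81 and the mitochondrial thiolase Acat1 at -0.52. Of 20 further fatty acid genes 3 rose and 7 fell, with Lpin1, a phosphatidate phosphatase, at 1.26, Mid1ip1, which helps acetyl-CoA carboxylase to polymerise, at -1.97, and the desaturase Fads3 at -1.61.

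Macrophages from SCCVII tumours had less RNA of Mvd, Cyp51, Sc5d, Acly, Fasn and Insig1 than HPV- macrophages, and more of Acat2. In all, 2 of the 28 were higher, where 18.7% of genes were, and 6 were lower, where 20.5% were. Mvd fell by 0.81 ± 0.11, the lanosterol demethylase Cyp51 by 0.67 ± 0.08, the sterol desaturase Sc5d by 0.55 ± 0.10, Acly by 0.52 ± 0.09, Fasn by 0.47 ± 0.07 and Insig1 by 0.35 ± 0.08 on the log2 scale (SE; adjusted p between 0.00023 and 0.0081). Acat2, the cytosolic thiolase of the pathway's opening step, rose by 0.55 ± 0.09 (SE; adjusted p = 0.00092), with 24.5, 23.2 and 23.0 CPM in SCCVII macrophages, against 15.97, 17.2 and 14.5 CPM in HPV- macrophages. Its near-identical copy Acat3 was at 0.418 CPM or less in these 6 libraries. The rise of Hmgcs1 (0.26, adjusted p = 0.022) was lost without SCCVII library 1 or 2, with adjusted p up to 0.070. Without HPV- library 4, 11 members were called: Pmvk (-0.59), Fdft1 (-0.25) and Dhcr7 (-0.24) were called in addition. That count stands without the calls over all genes in the refit.

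Set against HPV+ macrophages, SCCVII macrophages had all 6 fatty acid genes lower. Of the 28, 14 were lower, where 30.9% of genes were, and 8 were higher, where 32.2% were, so that the count of lower genes was above the background share. Pmvk fell by 1.83, Acly by 1.65, Scd2 by 1.51, Mvd by 1.46, Fasn by 1.29 and Insig1 by 1.04 on the log2 scale, with SE of 0.08 to 0.19 and adjusted p of 4.1e-05 or less. Pmvk had 27.3, 24.8 and 27.1 CPM in SCCVII macrophages, against 95.8, 78.9 and 98.2 CPM in HPV+ macrophages. The early enzymes Acat2 (0.60), Idi1 (0.48), Hmgcs1 (0.31) and Mvk (0.22) and the sterol enzymes Lss (0.65), Msmo1 (0.45), Sqle (0.42) and Nsdhl (0.31) were higher in SCCVII macrophages, while the sterol enzymes Sc5d (-0.65), Cyp51 (-0.62), Fdft1 (-0.28) and Dhcr7 (-0.27) were lower. Leaving out 1 library ended the calls of Dhcr7 (any of the 6, adjusted p up to 0.11), Mvk (any but SCCVII library 1, up to 0.18), Scd1 (-1.22; HPV+ library 3, SCCVII library 2 or 3, up to 0.075) and Fdft1 (SCCVII library 1, 0.057). All 10 mitotic genes were higher in SCCVII macrophages, summing to 1211 to 1363 CPM, against 377 to 472 CPM in HPV+ macrophages, and the part of this was not tested. The 3 macrophage comparisons share libraries and are not independent of each other.

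The same genes in cultured tumour lines, without host cells, gave another picture. In the HPV+ line 6 of the 28 were lower than in the HPV- line, where 23.9% of genes were lower, and 2 were higher, where 23.2% were higher. Elovl6 fell to 32.7, 16.7 and 18.4 CPM in the HPV+ line, against 86.0, 71.0 and 76.9 CPM in the HPV- line, a log2 change of -1.79 ± 0.23 (SE; adjusted p = 0.00013). Dhcr7, the last reductase of cholesterol synthesis, had 20.6, 12.2 and 13.8 CPM in the HPV+ line and 28.6, 27.3 and 38.5 CPM in the HPV- line (log2 change -1.03 ± 0.21 SE; adjusted p = 0.0026). In both genes the lines did not overlap. Hsd17b7, the sterol ketone reductase, was higher, at 30.2, 27.3 and 33.7 CPM in the HPV+ line and 20.3, 21.9 and 21.8 CPM in the HPV- line (log2 change 0.50 ± 0.11 SE; adjusted p = 0.0045).

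The other calls between the MEER lines rested on single aliquots. HPV+ line library 1 held 51.8 CPM of Idi1, against 16.6 and 21.5 CPM in the other 2 aliquots, and 917 CPM of Scd2, against 433 and 384 CPM, and the median of the 28 genes lay 0.73 above the other 2 aliquots on the log2 scale. Without this library 14 members were called, against 8 with it, and calls over all genes in that refit are not given here. Insig1 then changed by -1.89 (-1.24 with the library), Scd2 by -1.53 (-1.02 with it) and Elovl6 by -2.17. Called in addition were Scd1 (-1.23, against -0.66 and adjusted p = 0.10 with the library), Sqle (-0.56), Cyp51 (-0.47), Srebf2 (-0.46), Msmo1 (-0.38) and Fdps (-0.34). Conversely, the calls of Lss (0.45; without HPV+ library 2 or 3 or HPV- library 2, adjusted p up to 0.065), Insig1 (HPV+ 2 or 3 or HPV- 3, up to 0.11), Scd2 (HPV+ 2 or HPV- 3, up to 0.066), Acaca (-0.40; HPV+ 3 or HPV- 1 or 2, up to 0.071) and Acly (-0.34; any but HPV+ 1, up to 0.15) were each lost. The 10 mitotic genes were higher for 9 in the HPV+ line, summing to 1170 to 1429 CPM, against 551 to 1022 CPM in the HPV- line, and their part was not tested.

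The SCCVII line was marked by Scd1, the squalene enzymes and Srebf2. Against the HPV- line 4 members were higher, where 27.2% of genes were, and 10 were lower, where 31.6% were. Against the HPV+ line 7 were higher, where 30.0% were, and 9 were lower, where 34.1% were. Scd1 had 390, 381 and 392 CPM in the SCCVII line, against 123, 57.2 and 44.99 CPM in the HPV+ line and 112, 107 and 136 CPM in the HPV- line, and the log2 change was 2.27 ± 0.32 over HPV+ and 1.61 ± 0.31 over HPV- (SE; adjusted p = 0.00012 and 0.0013). Fdft1, which joins farnesyl units into squalene, had 68.4, 69.2 and 69.6 CPM in the SCCVII line, against 27.3, 16.6 and 20.4 CPM in the HPV+ line and 19.4, 21.6 and 34.6 CPM in the HPV- line (log2 changes 1.60 and 1.35). Sqle, which acts next, had 165, 167 and 162 CPM in the SCCVII line, against 76.7, 52.9 and 55.8 CPM in the HPV+ line and 69.2, 80.2 and 87.4 CPM in the HPV- line (1.32 and 0.96). Every SCCVII aliquot lay above every MEER aliquot in these 3 genes, and so it did for Srebf2 (320 to 344 CPM in the SCCVII line, against 115 to 182 CPM in the HPV+ line and 140.2 to 203 CPM in the HPV- line). Later enzymes were lower, in 2 comparisons that share the SCCVII aliquots. The log2 changes were -1.41 over HPV+ and -1.001 over HPV- for Ebp, -1.30 and -0.80 for Hsd17b7, -0.78 and -0.85 for Cyp51, and -0.55 and -0.62 for Msmo1. Sc5d had 28.2, 30.9 and 30.7 CPM in the SCCVII line, against 65.7, 59.3 and 70.2 CPM in the HPV+ line and 73.3, 77.6 and 75.7 CPM in the HPV- line (log2 changes -1.21 and -1.43, adjusted p = 1.5e-06 and 6.1e-07).

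Calls of the SCCVII line that 1 left-out aliquot ended were, against the HPV- line, Elovl6 (-0.64; any but HPV- 2, adjusted p up to 0.077) and Mvk (-0.68; SCCVII 2 or 3 or HPV- 3, up to 0.088). Against the HPV+ line they were Tm7sf2 (-1.51), Srebf1 (-0.91), Insig1 (1.06), Acly (0.37), Pmvk (-0.64) and Msmo1 (-0.55), with adjusted p up to 0.24. Tm7sf2, Srebf1 and Pmvk were among those lost without HPV+ line library 1, at -0.53, -0.44 and -0.41. Without that library 19 members were called, against 16 with it, and Insig1 (1.71) and Acly (0.52) kept their calls. Calls over all genes in that refit are not given here. The other libraries that ended a call were SCCVII 1, 2 or 3 for Tm7sf2, Srebf1 and Msmo1, these and HPV+ 2 or 3 for Insig1 and Acly, and SCCVII 2 or 3 for Pmvk.

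The HPV-status difference seen in macrophages was set against that in the lines in 1 model, by testing the macrophage change minus the line change. Larger and smaller are used here of the signed log2 value, so that a change of 0 is larger than a fall. All 6 fatty acid genes had a larger HPV+ over HPV- change in macrophages than in lines. The difference between the changes was 2.30 ± 0.37 for Scd2, 2.08 ± 0.31 for Elovl6, 1.48 ± 0.15 for Acly and 0.86 ± 0.15 for Acaca on the log2 scale (SE; adjusted p of 0.00029 or less). Fasn (0.87, adjusted p = 0.023) and Scd1 (1.55, adjusted p = 0.026) were also past the threshold, but Fasn lost it without HPV+ macrophage library 3, HPV+ line 2 or HPV- line 1 (adjusted p up to 0.072), and Scd1 without any of 6 libraries (HPV+ macrophage 3, HPV- macrophage 1 or 2, HPV+ line 2 or 3, HPV- line 3; up to 0.078). In all, 9 of the 28 were called with a larger change in macrophages, where 19.4% of 15835 genes were, and 2 with a smaller one, where 21.6% were. The others with a larger change were Insig1 (1.96), Pmvk (1.67) and Dhcr7 (1.196), and those with a smaller one were Lss (-1.14) and Hsd17b7 (-0.61). Of the 8 members higher in HPV+ macrophages, 4 were lower in the HPV+ line and none was higher. These 4 were Acly, Scd2, Acaca and Insig1, and Lss was lower in HPV+ macrophages and higher in the HPV+ line. These 5 line calls are the ones that were lost when 1 aliquot was left out, as given above. Such pairs of calls were not counted over all genes, so the tally is no result about the 28. Without HPV+ line library 1, 15 members were called, and the differences were 2.80 for Scd2, 2.43 for Elovl6 and 2.59 for Insig1. How many of all genes were called in that refit is not given here. The 10 mitotic genes all had a smaller change in macrophages, and their part was not tested.

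**Figure D3:**
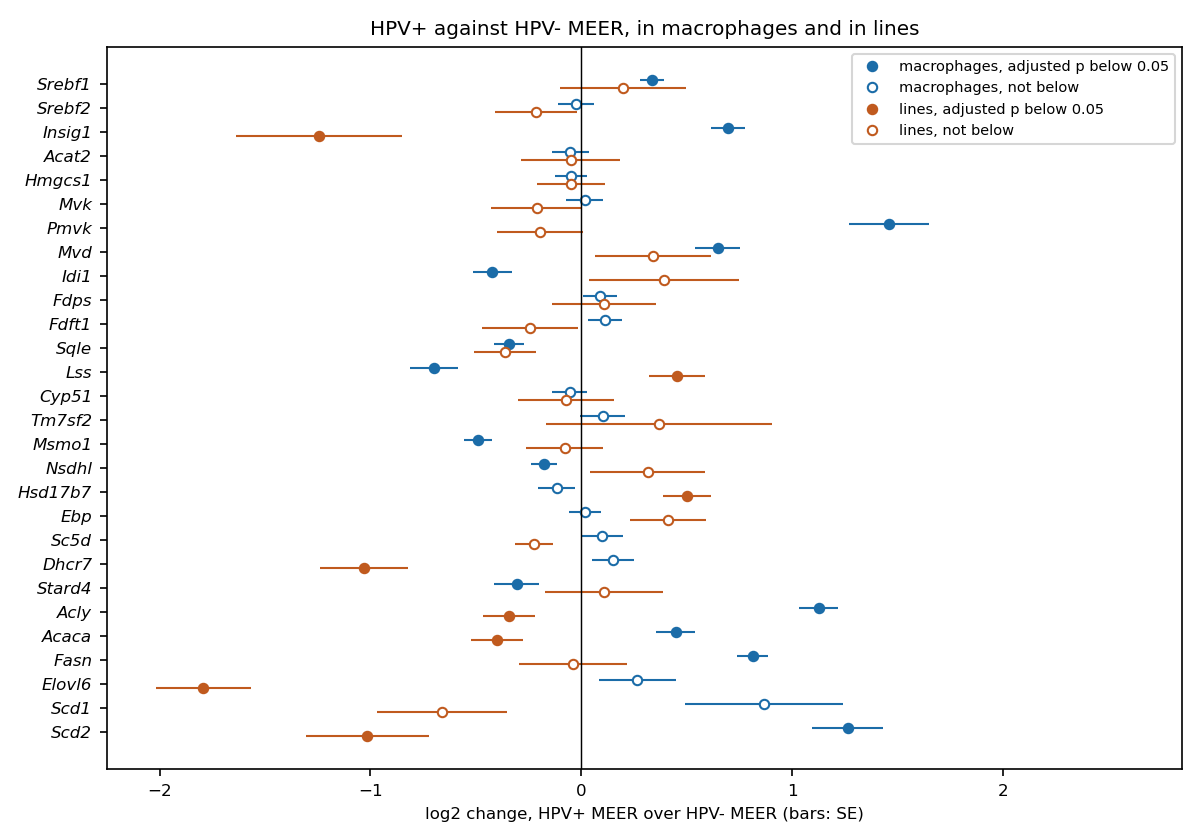
Log2 change, HPV+ over HPV-, of each of the 28 genes in macrophages and in the tumour lines, with SE bars; filled points passed an adjusted p under 0.05. Acly, Scd2, Acaca and Insig1 are on the right of 0 in macrophages and on the left in lines, and Lss is the reverse.

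The same test for SCCVII over HPV- gave 5 of the 28 with a larger change in macrophages than in lines, where 19.8% of genes were, and 7 with a smaller one, where 23.9% were. The signed change in macrophages lay above that in lines for Ebp (0.97), Mvk (0.86), Sc5d (0.82), Hsd17b7 (0.80) and Dhcr7 (0.68), all of which were lower in the SCCVII line than in the HPV- line. Sc5d changed by -0.55 in macrophages and by -1.43 in lines, and Ebp by 0.03 (adjusted p = 0.77) and by -1.001. The signed change in macrophages lay below that in lines for Scd1 (-2.02), Fdft1 (-1.58), Mvd (-1.41), Sqle (-0.95), Fasn (-0.82), Srebf2 (-0.81) and Acly (-0.61). The calls of Dhcr7 and Fasn were lost without 7 and 6 of the 12 libraries, with adjusted p up to 0.093 and 0.075. For Dhcr7 these were each SCCVII macrophage library, HPV- macrophage 4, SCCVII line 2 or 3 and HPV- line 3, and for Fasn SCCVII macrophage 3, HPV- macrophage 1 or 4, SCCVII line 3 and HPV- line 2 or 3. Fdft1, higher in the SCCVII line than in the HPV- line, was at 27.2 to 29.0 CPM in SCCVII macrophages and at 27.2 to 34.0 CPM in HPV- macrophages.

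Compared with the line of the same model, macrophages had more RNA of several early and regulatory genes and less of several fatty acid genes. Sterol enzymes went both ways, with 5 higher and 4 lower in SCCVII, 5 and 5 in HPV+, and 5 and 5 in HPV-. In all 3 models Srebf1, Insig1, Hmgcs1, Mvk, Pmvk, Tm7sf2, Nsdhl, Ebp, Dhcr7 and Stard4 were higher in macrophages, and Sqle, Lss, Sc5d, Acaca, Scd1 and Elovl6 were lower. Calls shared by the 3 models were not counted over all genes, and the background in each single model was high. In SCCVII 12 members were higher and 9 lower in macrophages, where 37.4% and 35.5% of genes were; in HPV+ 14 were higher and 9 lower, where 39.6% and 39.1% were; in HPV- 15 were higher and 11 lower, where 38.7% and 37.4% were. Of the 10 mitotic genes, 4 were higher and 4 lower in SCCVII macrophages than in their line, none was higher and 10 were lower in HPV+, and 5 were higher and 3 lower in HPV-, and their part was not tested.

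Scd1 had the widest gap, with 8.70, 5.98 and 6.21 CPM in SCCVII macrophages, against 390, 381 and 392 CPM in the SCCVII line, a log2 change of -5.66 ± 0.44 (SE; adjusted p = 6.4e-09). In HPV+ macrophages it had 13.6, 12.9 and 20.7 CPM, against 123, 57.2 and 44.99 CPM in the line (-2.09), and in HPV- macrophages 7.32, 4.55 and 14.3 CPM, against 112, 107 and 136 CPM in the line (-3.64). No macrophage library reached the lowest aliquot of its line. Without HPV+ line library 1 the HPV+ value was -1.54, and without HPV- macrophage library 4 the HPV- value was -4.19. Elovl6 had log2 changes of -2.60 in SCCVII, -0.67 in HPV+ and -2.74 in HPV-, and the HPV+ call was lost without HPV+ line library 1 (-0.31, adjusted p = 0.10). Lss had changes of -1.22 in SCCVII, -2.43 in HPV+ and -1.29 in HPV-.

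Pmvk was the reverse, with 27.3, 24.8 and 27.1 CPM in SCCVII macrophages, against 8.95, 8.31 and 7.43 CPM in the line, and a log2 change of 1.82 ± 0.21 (SE; adjusted p = 7.8e-07). The change was 3.09 ± 0.21 in HPV+ and 1.42 ± 0.20 in HPV-. Ebp was higher by 2.13 in SCCVII, 0.79 in HPV+ and 1.16 in HPV-, and the sterol reductase Tm7sf2 by 2.43, 1.21 and 1.45, of which the HPV+ value was 2.17 without HPV+ line library 1 and lost its call without library 2 (1.01, adjusted p = 0.066). Insig1 was higher by 3.00 in HPV+, 1.04 in HPV- and 0.82 in SCCVII, the last lost without SCCVII macrophage 2 or any SCCVII line aliquot (adjusted p up to 0.070). The direction of other genes differed between models. Hsd17b7 was higher in SCCVII macrophages than in their line (0.54) and lower in HPV+ (-0.88) and HPV- (-0.27) macrophages. Fdft1 was lower in SCCVII (-1.15) and higher in HPV+ (0.80) and HPV- (0.43). The tests of macrophage minus line changes against HPV-, given above, passed for both genes in SCCVII.

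Among the fatty acid genes Acly stood apart: it was higher in HPV+ macrophages than in their line by 2.23 and in HPV- macrophages by 0.75, while in SCCVII macrophages the value was 0.14 (adjusted p = 0.26). Fasn was lower in SCCVII (-2.08) and HPV- (-1.26) macrophages, and in HPV+ it was -0.40 (adjusted p = 0.082). Scd2 was lower in SCCVII (-0.98) and HPV- (-1.74) macrophages, and in HPV+ it was 0.56 (adjusted p = 0.058), or 1.06 with a call (adjusted p = 9e-05) without HPV+ line library 1. Mvd was higher in HPV+ (2.19) and HPV- (1.86), and in SCCVII it was 0.45 (adjusted p = 0.076). The other calls that 1 library ended were, in HPV+, Acat2 (-0.44; any macrophage library or line 1, adjusted p up to 0.51) and Stard4 (0.55; macrophage 2 or 3, line 2 or 3, up to 0.20). In HPV- they were Acat2 (-0.45; any macrophage library or line 3, up to 0.21), Fdft1 (macrophage 1 or 2, line 1 or 2, up to 0.21), Srebf1 (0.64; line 1 or 2, up to 0.099), Hsd17b7 (macrophage 2, 0.076), Mvk (0.50; line 2, 0.069) and Dhcr7 (0.50; macrophage 2, line 1 or 2, up to 0.065). Without HPV+ line library 1, 24 members were called in HPV+, against 23 with it, and calls over all genes in that refit are not given here.

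**Figure D4:**
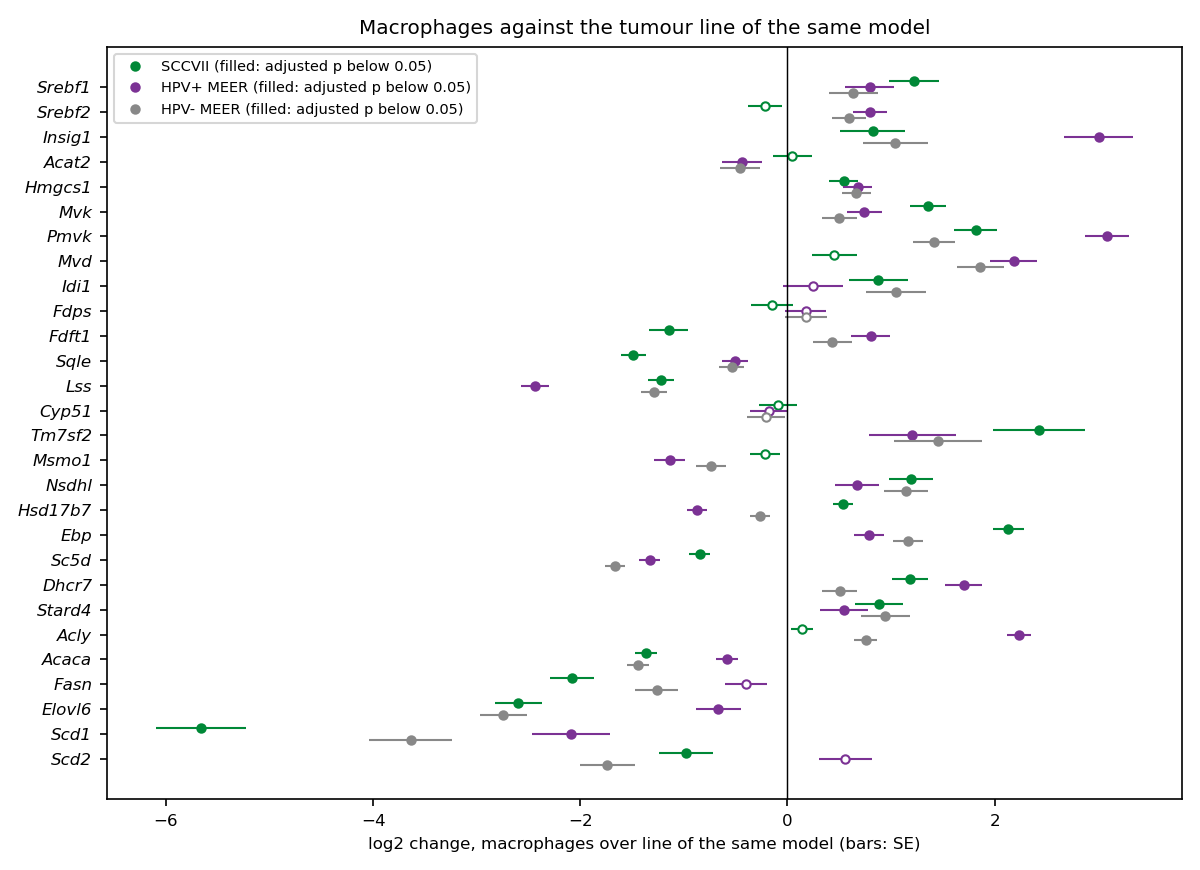
Log2 change, macrophages over the tumour line of the same model, of each of the 28 genes in SCCVII, HPV+ MEER and HPV- MEER, with SE bars; filled points passed an adjusted p under 0.05. Scd1 lies farthest to the left in SCCVII and HPV-, at -5.66 and -3.64, and Pmvk and Insig1 farthest to the right in HPV+, at 3.09 and 3.00.

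Genes that hold and export cholesterol were higher in macrophages of every model: of 15 genes, 13 in SCCVII, 14 in HPV+ and 15 in HPV- were higher and none was lower, where 37.4%, 39.6% and 38.7% of all genes were higher. Smpdl3a, an LXR target, was higher by 7.06 in SCCVII, 11.52 in HPV+ and 10.91 in HPV- on the log2 scale, fitted values against lines where it was nearly absent. Me1, the malic enzyme that supplies NADPH for fatty acid synthesis, had log2 changes of -5.32, -6.20 and -5.30. Of the 9 genes of SREBP processing and degradation at the endoplasmic reticulum, Erlin1 was lower in all 3 (-1.15, -1.92 and -2.03) and Ubxn8 higher (0.68, 1.05 and 0.50). Of 20 further fatty acid genes 11, 6 and 7 were higher and 6, 10 and 10 lower, and of 14 further sterol and acetyl-CoA enzymes 7, 7 and 5 were higher and 3, 6 and 7 lower, each in the order SCCVII, HPV+ and HPV-. Over all genes 35.5%, 39.1% and 37.4% were lower in these models, so that many of these counts were near the background.

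Among the 28 genes, Scd1 had the largest change between colonies and the macrophages of the same model. Library 1 of each colony group held far more macrophage marker RNA than the others. Main values are therefore also given with library 1 of each group alone, an alternative chosen after seeing the data. The lone library is assumed there to vary like the macrophage libraries, so only log2 changes are given. The 6 macrophage markers summed to 14150 and 1140 CPM in the SCCVII colonies, against 19210 to 21210 CPM in SCCVII macrophages, and to 12560, 874 and 44.7 CPM in the HPV- colonies, against 16780 to 20810 CPM in HPV- macrophages. Most of the sum in library 1 was Lyz2, at 13030 CPM in SCCVII and 9620 CPM in HPV- colonies. In SCCVII colony library 1 Csf1r was at 91.0 CPM, against 3009 to 3143 CPM in SCCVII macrophages. In HPV- colony library 1 Csf1r was at 558 CPM, against 2480 to 3554 CPM in HPV- macrophages. Adgre1 there, at 1239 CPM, exceeded the 636 to 956 CPM of HPV- macrophages. The neutrophil markers S100a8, S100a9, Mpo and Elane were at 100.2, 126.8, 53.48 and 18.81 CPM in HPV- colony library 1. Values with that library alone are therefore not values of macrophages alone. The neutrophil list summed to 9.726 and 10.38 CPM in the SCCVII colonies. The 4 fibroblast markers summed to 3966 and 2315 CPM in the SCCVII colonies, against 13.4 to 15.4 CPM in SCCVII macrophages, and to 540.2, 1268 and 345 CPM in the HPV- colonies, against 11.6 to 67.8 CPM in HPV- macrophages, with Col1a1 at 195 to 591 CPM in all 5. Krt8 and Krt18 were at 76.4 to 213 CPM in the 5 colony libraries, and the mitotic genes summed to 124 and 134 CPM in the SCCVII colonies and to 504, 159 and 145.5 CPM in the HPV- colonies. The part of these cells in the results below was not tested. The HPV- colonies were deposited in a table of their own, so their differences from other groups cannot be told apart from a difference between tables.

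In SCCVII colonies 13 of the 28 were higher than in SCCVII macrophages, where 29.7% of 16238 genes were, and 1 was lower, where 22.3% were. In HPV- colonies 11 were higher, where 34.0% were, and 5 were lower, where 28.7% were. The genes called higher in both were Acat2, Fdft1, Sqle, Lss, Msmo1, Sc5d, Acaca, Scd1, Scd2 and Elovl6. Calls shared by both colony groups were not counted over all genes.

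Scd1 had 315 and 274 CPM in the SCCVII colonies, against 8.70, 5.98 and 6.21 CPM in SCCVII macrophages, a log2 change of 5.40 ± 0.50 (SE; adjusted p = 4.8e-05). In the HPV- colonies it had 129.6, 269 and 286 CPM, against 7.32, 4.55 and 14.3 CPM in HPV- macrophages (4.68 ± 0.47 SE; adjusted p = 0.00011). With library 1 alone the changes were 5.47 and 4.00. Sqle had 163 and 122 CPM in the SCCVII colonies, against 51.3, 57.9 and 51.0 CPM in SCCVII macrophages (1.41 ± 0.20 SE), and 79.2, 142 and 125 CPM in the HPV- colonies, against 53.0, 48.1 and 48.8 CPM in HPV- macrophages (1.18 ± 0.19 SE). Msmo1 was higher by 0.95 and 1.04, and Fdft1 by 1.22 and 0.67, in SCCVII and HPV-.

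Hsd17b7 and Sc5d were uneven among the HPV- colonies. Hsd17b7 had 46.2 CPM in HPV- colony library 1 and 156 and 142 CPM in libraries 2 and 3, against 16.6, 15.5 and 16.7 CPM in HPV- macrophages, a log2 change of 2.78 ± 0.36 (SE; adjusted p = 0.0003), or 1.62 with library 1 alone. In the SCCVII colonies it had 29.0 and 27.8 CPM, against 16.8, 18.9 and 16.1 CPM in SCCVII macrophages. Sc5d had 58.2, 127 and 124 CPM in the HPV- colonies, against 22.6, 21.6 and 21.4 CPM in HPV- macrophages (2.20 ± 0.24 SE), or 1.52 with library 1 alone, and 38.4 and 38.3 CPM in the SCCVII colonies, against 16.1, 16.2 and 13.0 CPM in SCCVII macrophages (1.34 ± 0.26 SE). The 2 HPV- colony libraries with almost no Ptprc were the higher ones for both genes.

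Fewer genes fell. In HPV- colonies Acly had 161, 113 and 132 CPM, against 347, 381 and 289 CPM in HPV- macrophages, a log2 change of -1.33 ± 0.23 (SE; adjusted p = 0.0013), and Ebp (-0.95), Hmgcs1 (-0.56), Mvd (-1.10) and Pmvk (-0.79) were also lower. The calls of Mvd and Pmvk were lost without HPV- macrophage 1 or 2 or colony 2 or 3 (adjusted p up to 0.11 and 0.12). With library 1 alone their log2 changes were -0.33 and -0.39. In SCCVII colonies Stard4 was the 1 gene lower (log2 change -0.55). There Dhcr7 had 129 CPM in library 1 and 51.4 CPM in library 2, against 37.8, 39.3 and 38.0 CPM in SCCVII macrophages (1.22 ± 0.31 SE), and its call was lost without colony library 1 (0.43, adjusted p = 0.12). Acaca (0.51; any SCCVII macrophage library or colony 1, up to 0.44) and Cyp51 (0.55; macrophage 2 or 3 or colony 2, up to 0.15) were lost likewise. With library 1 alone the log2 change of Fasn in HPV- colonies was 1.01. Without HPV- colony library 1, 19 members were called in HPV-.

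Fasn showed a difference of unit again. It had 170.1 and 152 CPM in the SCCVII colonies, against 72.0, 71.2 and 65.9 CPM in SCCVII macrophages, and the log2 change by the count test was 1.21 ± 0.26 (SE; adjusted p = 0.004), whereas the ratio of mean TPM was 1.90 on the log2 scale. The effective length of Fasn was 2963 bases in SCCVII colonies and 5155 bases in SCCVII macrophages, while over the 28 genes the TPM ratio differed from the CPM ratio by a median of -0.12. Between HPV- colonies, deposited in a table of their own, and HPV- macrophages that median was 0.44. There the log2 ratio of mean TPM was -0.10 for Hmgcs1, called lower by the count test, where that of mean CPM was -0.55, and the sign turned for genes that were not called, such as Srebf1 (0.41 by TPM and -0.22 by CPM) and Srebf2 (0.09 by TPM and -0.34 by CPM).

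**Figure D5:**
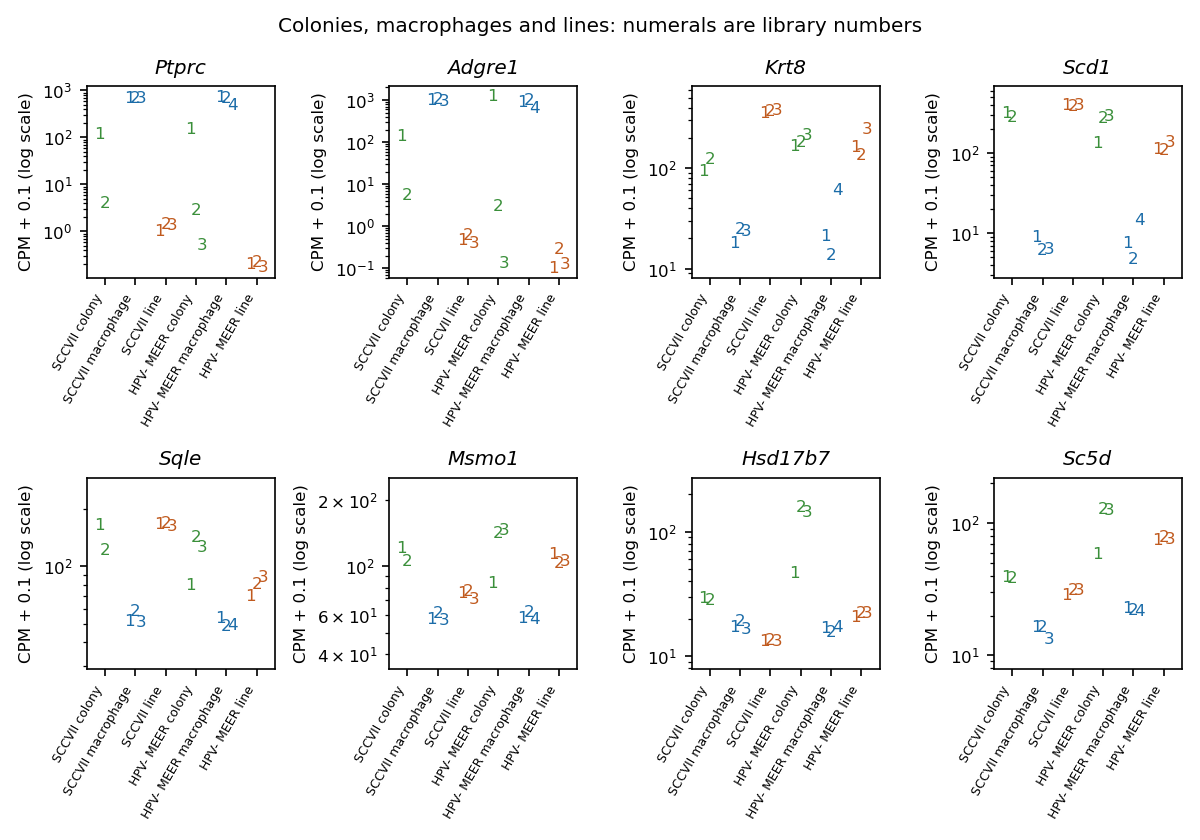
CPM (log axis, after adding 0.1) of 3 cell-type markers and 5 of the 28 genes in colonies, macrophages and lines of SCCVII and HPV- MEER; numerals give the library number. Among colony libraries Ptprc lies between 0.392 and 149 CPM and Adgre1 between 0.0302 and 1239 CPM, while Scd1 is at 129.6 CPM or more in every colony library.

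The colony minus macrophage change was also tested between the models, which for colonies cannot be told apart from the tables they were deposited in. As a signed value it was larger in SCCVII for Mvd (1.80), Ebp (0.66) and Fdft1 (0.55), where 13.5% of genes were called, and smaller for Hsd17b7 (-2.06) and Elovl6 (-1.51), where 10.6% were. Leaving out 1 library ended each of these calls: Mvd in 9 of 11 cases (all but SCCVII colony 2 and HPV- colony 1, adjusted p up to 0.17), Ebp in 9 (all but colony 1 of either model, up to 0.14), Fdft1 in 10 (all but HPV- macrophage 4, up to 0.14), Hsd17b7 in 3 (SCCVII macrophage 2, SCCVII colony 1 or 2, up to 0.065) and Elovl6 in 1 (SCCVII colony 2, 0.068). Without HPV- colony library 1, 12 members were called, a count that stands without the calls over all genes in that refit. With the 2 library 1s alone the values included 1.40 for Mvd, 1.54 for Dhcr7, 0.68 for Fdft1, 0.81 for Sqle, 0.42 for Msmo1, 0.81 for Acly and -0.89 for Hsd17b7.

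Genes around the 28 moved in colonies too, where 29.7% of all genes were higher and 22.3% lower in SCCVII, and 34.0% higher and 28.7% lower in HPV-. Me1 was higher by 5.96 in SCCVII and 6.39 in HPV- colonies, Acss2, which activates acetate, by 1.25 and 2.84, the second Insig gene Insig2 by 1.83 and 1.31, and the elongase Elovl7 by 7.47 and 4.24. The 15 cholesterol export and storage genes gave 3 higher and 2 lower in SCCVII colonies and 0 higher and 9 lower in HPV- colonies, with the exporter Abca1 lower in both (-1.80 in SCCVII and -2.34 in HPV-) and Ch25h lower in HPV- (-7.10). In SCCVII colonies 7 of 20 further fatty acid genes were higher and 2 lower, 3 of 14 further sterol and acetyl-CoA enzymes were higher and 6 lower, and 2 of the 9 SREBP processing and degradation genes were higher and 2 lower. In HPV- colonies these counts were 8 higher and 6 lower, 4 higher and 3 lower, and 5 higher and 2 lower. Acat3, the near-identical copy of Acat2, was called higher in both colony groups, at 1.82 to 3.21 CPM in colonies and at most 0.418 CPM in their macrophages, against 32.9 to 60.1 CPM of Acat2 in colonies.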

How the data were processed

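Poly(A) RNA libraries were made with a stranded TruSeq mRNA kit, per the labels' protocols. Tools named in the submitters' processing notes are RSEM 1.3.0, STAR 2.5.3a, MultiQC and FastQC, with GRCm38 and mm10 as builds. The strand setting and annotation release were not given in the sources used here. The authors deposited expected counts, TPM, FPKM (not used in any result) and effective lengths per gene in 2 tables, with the HPV- colonies in a table of their own. Of the expected counts, 13.1% were not whole, and all were rounded. Symbols came from GENCODE M21 on GRCm38 and were found for 95.8% of 36793 genes.

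Expected counts were tested with edgeR 4.0.16 (R 4.3.3): TMM scaling, filterByExpr with a count of 10 and a total of 15, a quasi-likelihood F test, Benjamini-Hochberg adjustment over all genes of the fit, and a threshold of 0.05. Separate fits served macrophages (9 libraries, 14085 genes), lines (9, 14396), both together (18, 15835) and colonies with their macrophages (11, 16238). All 28 members passed the filter in each. The SE of a log2 change is its size divided by the square root of F. CPM were scaled by TMM over 23 libraries (17014 genes, prior count 0.125 in fitted changes). Deposited TPM served to compare genes within a group. Tests were checked on simulated counts.

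The members and gene lists were chosen with earlier results of these data known. All 28 may be named, and of each further list the called genes that rose most (up to 2) and fell most (up to 2). Alternatives were DESeq2 1.42.0, its size factors in edgeR, no filter, all 23 libraries in 1 fit, a replicate block and each library left out. Intervals and floors of counts cover counting error only. No 2 libraries of a group agreed within sampling noise (chi-square per gene of 3.34 or more).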

Additional observations from a re-analysis of the deposited data

Results flagged for a closer look

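These differences between groups are listed because the same contrast gave another change in macrophages than in lines, or in 1 tumour model than in the other, by a test of the difference itself (edgeR, adjusted p under 0.05; log2 scale). None is explained here.

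For HPV+ over HPV-, the change in macrophages minus the change in lines was 2.30 for Scd2, 2.08 for Elovl6, 1.96 for Insig1, 1.67 for Pmvk, 1.55 for Scd1, 1.48 for Acly, 1.2 for Dhcr7, 0.87 for Fasn, 0.86 for Acaca, -0.61 for Hsd17b7 and -1.14 for Lss. For SCCVII over HPV-, it was 0.97 for Ebp, 0.86 for Mvk, 0.82 for Sc5d, 0.80 for Hsd17b7, 0.68 for Dhcr7, -0.61 for Acly, -0.81 for Srebf2, -0.82 for Fasn, -0.95 for Sqle, -1.41 for Mvd, -1.58 for Fdft1 and -2.02 for Scd1. Colony minus macrophage changes in SCCVII minus those in HPV- were 1.80 for Mvd, 0.66 for Ebp, 0.55 for Fdft1, -1.51 for Elovl6 and -2.06 for Hsd17b7. The first 2 sets share the HPV- libraries, and in the last set the colonies of the models came from different tables.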

How the results depend on the processing

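Of 2494 repeats of a member's call under the alternatives, 2238 kept direction and side of the threshold, 256 kept direction but missed the threshold and none reversed. With all 23 libraries in 1 fit, 6 members instead of 14 were called between HPV+ and HPV- macrophages, 2 instead of 8 between SCCVII and HPV- macrophages, and 8 instead of 5 for the colony change between models; over all genes the first 2 gave 3708 calls instead of 6853 and 2944 instead of 5527. For that colony change no filter gave 2 members and the replicate block 0. Leaving out each library in turn gave 4 to 14 members between the MEER lines (8 in full), 10 to 19 between the SCCVII and HPV+ lines (16 in full) and 1 to 12 for the colony change (5 in full). Counts under the other alternatives stayed within 1.5 times. Except for those 2 macrophage comparisons, these counts stand without the calls over all genes and are no result about the members. Replicate numbers did not pair the samples: deviations of same-numbered libraries correlated between -0.208 and 0.213 and are not tied by the labels, so the block shares only a number, and it moved only the colony count by more than 1.5 times. The all-library fit shifted the median of all genes by -0.15 and -0.12 between macrophages and lines (HPV+ and HPV-), and DESeq2 by 0.12 between HPV- colonies and macrophages. Depth did not limit the members, which were all above the filter; 3 libraries a group and, in colonies, libraries that disagree limit the precision.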
